A study of Homo sapiens with 6 samples.

Results

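Vitamin A enters cells as retinol, is oxidized to retinaldehyde and then to retinoic acid, and acts through nuclear receptors. The 9 genes described here cover this route: the retinol uptake receptor *STRA6*, the carrier *CRABP2*, the enzymes *DHRS3*, *ALDH1A1*, *ALDH1A3* and *CYP26A1*, and the retinoic acid receptors *RARA*, *RARB* and *RARG*. They were taken by gene symbol from the 20347 genes of the RNA-seq table. *STRA6* was chosen by its rise of more than 10-fold in SAMD1 KO cells, so its values are given as a description with no test. The other 8 genes were added for their place in the pathway, with earlier results of these data known.

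RNA was sequenced from PaTu8988t cells, an established line of pancreatic ductal adenocarcinoma (PDAC), grown untreated in serum-containing medium. The 3 control replicates came from cells that carried a CRISPR/Cas9 plasmid with an unspecific guide RNA. The 3 SAMD1 KO libraries came from clonally independent lines whose guide RNAs targeted *SAMD1*, the gene of a repressor that binds unmethylated CpG-rich DNA. Each KO library therefore stands for 1 clone, and clonal origin and loss of SAMD1 cannot be told apart. No source used here says whether the control replicates were separate cultures, so the spread among them may be technical.

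In this pathway, STRA6 takes up retinol from its serum carrier, and binding proteins hold it inside the cell. Retinaldehyde is turned into retinoic acid by the ALDH1A enzymes, or back into retinol by DHRS3, and the CYP26 enzymes break retinoic acid down. Retinoic acid receptors pair with RXR proteins and bind direct repeats of a short hexamer, and *RARB*, *CYP26A1* and *DHRS3* are well-known targets of retinoic acid. In the healthy pancreas, stellate cells store retinol as esters.

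Promoter sequences are shown because the members differ in what lies before their transcription starts. RefSeq windows on GRCh38.p14 (250 bases before to 50 after a start) matched all 9 members, with 21 windows in all because several genes have more than 1 start. Both strands were searched for the receptor hexamer AGGTCA. Its variants AGTTCA and GGGTCA, as well as GGTTCA, were searched too, alone and as direct repeats with spacers of 1, 2 or 5 bases. Repeats with a spacer of 5 bases occurred in 31 of 35116 windows of all genes (0.0883%), and among the members in 1 window of *RARB* and 1 of *CYP26A1*. In *RARB* the repeat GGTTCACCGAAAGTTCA lay from −53 to −37 relative to the start, and in *CYP26A1* the repeat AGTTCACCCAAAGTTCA lay on the opposite strand from −90 to −74. Both repeats are built from variants that were added to the planned hexamer AGGTCA, so these hits are descriptions. Repeats of AGGTCA alone with a spacer of 5 bases occurred in 2 of 35116 windows, and in no member window. No member window held a repeat of any of these forms with a spacer of 1 or 2 bases, which 0.131% and 0.0399% of all windows did. The 250 bases before these starts are given with the repeat in capitals, at chr3:25428013-25428262 (plus strand) for *RARB* and chr10:93073643-93073892 (plus strand) for *CYP26A1*.
RARB: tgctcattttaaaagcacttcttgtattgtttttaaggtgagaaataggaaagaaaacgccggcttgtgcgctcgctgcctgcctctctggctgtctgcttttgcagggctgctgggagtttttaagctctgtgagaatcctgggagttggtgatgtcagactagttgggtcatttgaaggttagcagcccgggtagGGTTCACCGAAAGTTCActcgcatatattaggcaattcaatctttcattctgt
CYP26A1: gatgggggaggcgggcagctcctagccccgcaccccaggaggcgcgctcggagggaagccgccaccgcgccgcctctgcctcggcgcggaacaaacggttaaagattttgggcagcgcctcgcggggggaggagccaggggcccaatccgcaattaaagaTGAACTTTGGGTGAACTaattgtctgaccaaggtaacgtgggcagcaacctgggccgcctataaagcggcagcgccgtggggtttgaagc

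The members with the largest differences between the groups, *STRA6* and *DHRS3*, had no such repeat in their windows. Their most upstream windows are shown, which differ in CpG content, at chr15:74212260-74212509 (minus strand) for *STRA6* and chr1:12618211-12618460 (minus strand) for *DHRS3*. Capitals mark single hexamers of these forms on either strand. *STRA6* has 3 of them here and *DHRS3* none, where 38.6% of all windows hold at least 1. The other *STRA6* windows hold 0, 1, 0 and 0, and the other *DHRS3* windows 1 each.
STRA6: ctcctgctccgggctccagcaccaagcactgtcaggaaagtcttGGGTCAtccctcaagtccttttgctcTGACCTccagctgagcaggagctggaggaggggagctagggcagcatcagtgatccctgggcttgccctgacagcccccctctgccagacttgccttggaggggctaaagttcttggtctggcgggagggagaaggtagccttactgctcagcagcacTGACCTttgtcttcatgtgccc
DHRS3: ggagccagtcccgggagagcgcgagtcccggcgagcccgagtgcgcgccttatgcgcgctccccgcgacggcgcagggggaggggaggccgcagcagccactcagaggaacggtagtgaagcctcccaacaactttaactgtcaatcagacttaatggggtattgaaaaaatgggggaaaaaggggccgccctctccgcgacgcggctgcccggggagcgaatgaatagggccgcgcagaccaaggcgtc

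The shown *STRA6* window holds 3 CpG dinucleotides in 300 bases, fewer than the median of 14 over all windows, and the shown *DHRS3* window holds 31. All 5 *STRA6* windows hold between 2 and 10, and the other *DHRS3* windows hold 13 and 5, so the windows of both genes overlap in CpG content. Among the other members, the window of *ALDH1A3* holds 46, that of *RARG* 14, that of *CRABP2* 20, and that of *RARB* with the repeat 7, while the other *RARB* windows hold 33, 1 and 2. The motif GCGC occurs 9 times in the shown *DHRS3* window, 10 times in the shown *CYP26A1* window and 8 times in the *ALDH1A3* window, and in 57.2% of all windows at least once. It is absent from the shown *STRA6* window and from the only *RARG* window, and the other *STRA6* windows hold it 0, 0, 1 and 1 times. The *CRABP2* window holds it 3 times, the *RARA* windows 1, 0 and 4 times, and the *RARB* window with the repeat 1 time. In the other *RARB* windows it occurs 5, 0 and 0 times, in the other *DHRS3* windows 3 and 1 times, and in the other *CYP26A1* window 2 times. Reads were counted per gene, so these values do not tell which start was used. Binding of SAMD1 to these promoters was not analysed here.

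Sequencing depth ran from 35589477 to 45172216 reads per library. *SAMD1* itself fell from 2304 ± 76.1 normalized counts to 926.9 ± 136 (SD, n = 3 each), and was lower in all 3 libraries labelled as KO (log2 fold change −1.32, limma adjusted p = 0.000724). Calls were made for 5.77% (higher) and 2.08% (lower) of the 12773 tested genes, where a call needs an unadjusted limma p below 0.01 and more than 0.5 of change on the log2 scale. All 3 KO libraries lay above all 3 control libraries in 19.2% of tested genes, and below them in 18.6%. The epithelial keratins *KRT8* and *KRT18* were abundant, and the summed level of the 10 ductal epithelial markers ran from 63627 to 66839 in control and from 68940 to 110460 in KO libraries, with 3 of 7 tested markers (*KRT7*, *KRT18* and *SOX9*) called higher and 2 of the 10 without reads. Of the 11 acinar and endocrine markers 9 had no reads. The 11 stellate cell and fibroblast markers summed to between 667.3 and 687.5 in control and between 609.8 and 929.6 in KO libraries, and 3 of them, *DCN*, *LUM* and *FAP*, had no reads. Of the 5 tested, *PDGFRA* was called higher, at 3.98 ± 0.572 normalized counts in control and 17.9 ± 5.06 in KO libraries, and reached the minimum mean only through the latter. *COL3A1* had 279.8, 398.3 and 130.4 normalized counts in the clones, all above its control mean of 111.1 ± 2.34, and did not pass (limma adjusted p = 0.0881). Others went the other way, with every clone below every control replicate. *COL1A1* had 50.6 ± 1.91 in control and 26.2 ± 13.6 in KO libraries, and *ACTA2* 410.5 ± 6.37 and 346.2 ± 20.2. Neither passed (limma adjusted p = 0.0980 and 0.116). The 8 leukocyte and endothelial markers summed to between 437.0 and 461.8 in control and between 298.9 and 417.4 in KO libraries. The part of these markers in the results was not tested. In such bulk samples, fewer cells expressing a gene and less RNA per cell cannot be told apart.

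Of the 8 members other than *STRA6*, 7 reached a mean of 10 normalized counts, the minimum for testing. The genes *DHRS3*, *ALDH1A3*, *RARB* and *RARG* rose in SAMD1 KO cells. Thus 4 of 7 were called higher, against 5.77% of all tested genes. By limma, edgeR and DESeq2, 0 members were called lower (0 at an unadjusted limma p below 0.05), against 2.08% of all tested genes. The median log2 fold change of the 7 genes was 0.87, and that of all tested genes −0.0059. In 5 of the 7 genes the clones lay above the control replicates without overlap, as they did in 19.2% of all tested genes. Among these 5, *CYP26A1* reached the minimum mean only through the KO group, where it is high. The members were also chosen with earlier results of these data known, so these counts and the median are descriptions. The plot of normalized counts by library shows each value.

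**Figure D1:**
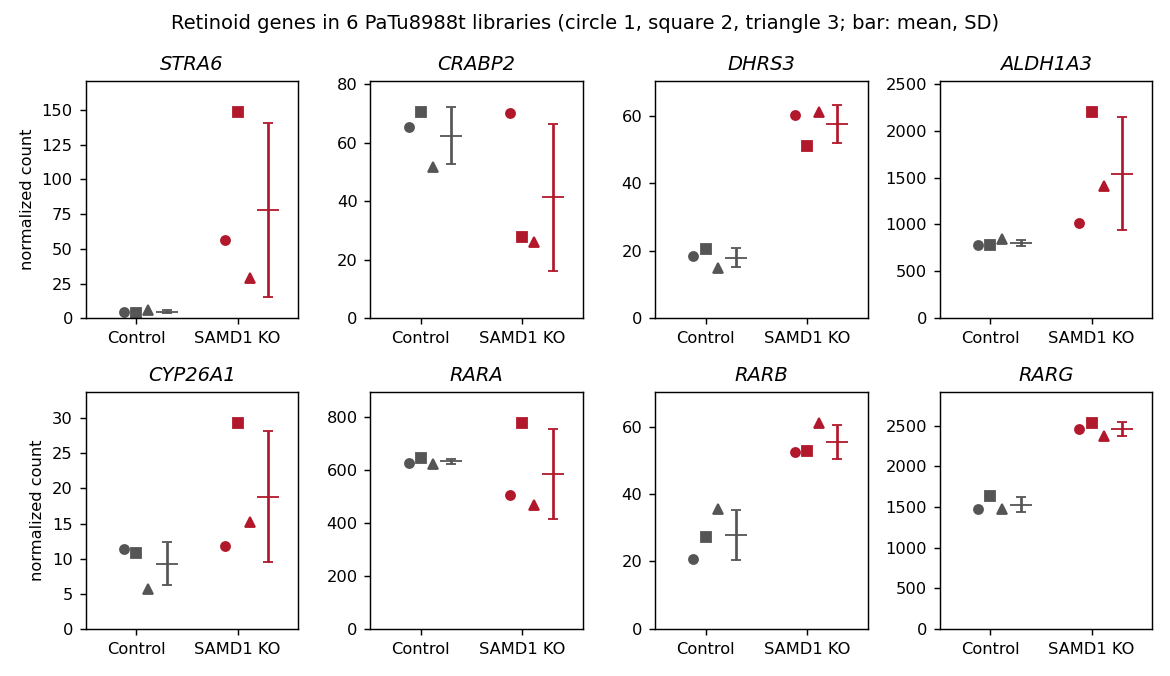
Normalized counts of the 8 members with reads, 1 panel per gene, with control replicates in grey and SAMD1 KO clones in red (circle, square and triangle for 1, 2 and 3) and the mean and SD beside them. The clones lie close together for DHRS3, RARB and RARG, and far apart for STRA6, ALDH1A3, CYP26A1 and CRABP2.

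*STRA6* (chromosome 15, 74179466 to 74212267), the membrane receptor for retinol bound to its serum carrier, had 4.58, 3.91 and 5.73 normalized counts in control replicates 1 to 3, against 56.4, 148.6 and 28.8 in clones 1 to 3. Every clone lay above every control replicate, with clone 2 the highest and clone 3 the lowest. These values rest on 4, 4 and 5 reads in control and on 57, 172 and 32 reads in the clones. The ratio of the group means was 16.4, the third largest of all tested genes, of which 7 exceeded 10. Among the members, the next ratio below this threshold was that of *DHRS3*, at 3.21. The rank of *STRA6* comes from the same values by which it was chosen. It also reached the minimum mean for testing only through the KO group, where it is high, so its rank is a description.
From the summed reads, 13 in control and 261 in the clones, the ratio was 16.9, with a 95% interval of 9.74 to 32.3 (exact, conditional on the total). The interval covers counting error only. Because *STRA6* was chosen for its rise in these same values, the ratio and its interval may lie too high. On the log2(normalized count + 1) scale the difference was 3.48, where the added 1 shrinks the difference of so low a gene. A pseudocount of 10 gave 2.33, and leaving out any 1 library gave 2.86 to 4.02. Exons of *STRA6* share 519 bases with *CCDC33* on the opposite strand, and *CCDC33* had at most 2 reads in any library.

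*CRABP2* (chromosome 1, 156699606 to 156705816), which binds retinoic acid in the cytoplasm and carries it to its receptors, had 65.2, 70.4 and 51.5 normalized counts in control, against 70.2, 27.6 and 26.1 in clones 1 to 3. Clone 1 lay at the control level, and clones 2 and 3 lay below every control replicate. The mean was 62.4 ± 9.76 in control and 41.3 ± 25.0 in KO cells (SD, n = 3 each), and the difference did not pass (log2 fold change −0.72, standard error (SE) 0.39, limma adjusted p = 0.257). When clone 1 was left out, *CRABP2* was called lower, with a log2 fold change of −1.17.

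*DHRS3* (chromosome 1, 12567910 to 12618210), the reductase that returns retinaldehyde to retinol, had 18.3, 20.5 and 14.9 normalized counts in control, against 60.3, 51.0 and 61.2 in the clones. All clones were alike and lay well above the control range. The mean rose 3.21-fold, from 17.9 ± 2.85 to 57.5 ± 5.66 (SD, n = 3 each), with a log2 fold change of 1.64 (SE 0.22, limma adjusted p = 0.00477). It was the largest change among the tested members other than *STRA6*, and leaving out any 1 library gave log2 fold changes from 1.52 to 1.73.

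*ALDH1A3* (chromosome 15, 100877714 to 100916626), which oxidizes retinaldehyde to retinoic acid, had 783.5, 778.8 and 840.8 normalized counts in control, against 1018, 2200 and 1409 in clones 1 to 3. The groups did not overlap, but the clones spread 2.16-fold among themselves and the control replicates only 1.08-fold. The mean was 801.0 ± 34.5 in control and 1543 ± 602 in KO cells (SD, n = 3 each), with a log2 fold change of 0.87 (SE 0.25, limma adjusted p = 0.0596). The call on the unadjusted p (0.00873, limma) was lost when any of the control replicates or clone 3 was left out, with log2 fold changes between 0.85 and 0.91. Without clone 2 the log2 fold change was 0.58, and the call held. Exons of *ALDH1A3* share 1715 bases with the antisense gene *ALDH1A3-AS1*, and the reads of both cannot be told apart where the count ignored strand.
Its relative *ALDH1A1* (chromosome 9, 72900671 to 73080442) was listed at 0 in all 6 libraries, where 0 reads allow up to 3 reads per library. Zeros in this table need care, since *GPS2* and *KRT19*, a widely expressed gene and a ductal keratin, had at most 2 reads in any library. *ALDH1A2*, the remaining ALDH1A gene, had at most 1 read per library, so that *ALDH1A3* held at least 99.9% of the ALDH1A level per kilobase of exon.

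*CYP26A1* (chromosome 10, 93073475 to 93077885), an enzyme that clears retinoic acid, was low in all libraries, with 11.4, 10.8 and 5.73 normalized counts in control, against 11.9, 29.4 and 15.3 in the clones. Clone 1 lay only just above the highest control replicate, and clone 2 stood apart. The mean was 9.31 ± 3.12 in control and 18.8 ± 9.28 in KO cells (SD, n = 3 each), and the difference did not pass (log2 fold change 0.90, SE 0.43, limma adjusted p = 0.215). The counts were between 5 and 34 reads per library, and without clone 2 the log2 fold change was 0.54.

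Of the 3 receptor genes, *RARG* and *RARB* rose and *RARA* did not pass the test. *RARG* (chromosome 12, 53210567 to 53232980) had 1481, 1635 and 1477 normalized counts in control, against 2464, 2538 and 2371 in the clones. The clones agreed within 1.07-fold and lay above the control range. The mean rose from 1531 ± 90.1 to 2458 ± 83.8 (SD, n = 3 each), or by a log2 fold change of 0.68 (SE 0.065, limma adjusted p = 0.00132). Leaving out any 1 library gave log2 fold changes from 0.66 to 0.73.
*RARB* (chromosome 3, 24687887 to 25597932), which carries the repeat shown above in 1 of its promoters, had 20.6, 27.4 and 35.5 normalized counts in control, against 52.4, 52.7 and 61.2 in the clones. The groups did not overlap, and the control replicates spread more (1.72-fold) than the clones (1.17-fold). The mean rose from 27.8 ± 7.47 to 55.4 ± 4.97 (SD, n = 3 each), or by a log2 fold change of 1.00 (SE 0.25, limma adjusted p = 0.0398). The call was lost without control replicate 1, control replicate 2 or clone 3, with log2 fold changes of 0.81, 1.00 and 0.93.
*RARA* (chromosome 17, 40309180 to 40357643) had 626.8, 643.8 and 623.1 normalized counts in control, against 506.3, 777.6 and 468.6 in the clones. Clone 2 lay above the control range and clones 1 and 3 below it. The mean was 631.3 ± 11.0 in control and 584.2 ± 169 in KO cells (SD, n = 3 each), with no difference that passed (log2 fold change −0.15, SE 0.18, limma adjusted p = 0.629).

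Levels of different genes were compared per kilobase of exon. In control cells *RARG* was the highest member at 298.6 ± 17.6 normalized counts per kilobase, followed by *ALDH1A3* at 150.1 ± 6.46, *RARA* at 133.1 ± 2.32 and *CRABP2* at 57.7 ± 9.02 (SD, n = 3 each). The remaining members were far lower, with *DHRS3* at 5.10 ± 0.810, *CYP26A1* at 3.14 ± 1.05, *RARB* at 2.95 ± 0.791 and *STRA6* at 0.618 ± 0.120. Only *CYP26A1* and *RARB*, neighbours in this order, overlapped in their control replicates. In KO cells *STRA6* reached 10.2 ± 8.18 normalized counts per kilobase, so that it stood between *DHRS3* at 16.4 ± 1.61 and *CYP26A1* at 6.36 ± 3.13, and its clones overlapped with those of both.

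Among the receptors, *RARG* held 68.7 ± 0.893% of the summed level per kilobase in control and 79.0 ± 3.91% in KO cells (SD, n = 3 each). The share of *RARA* was 30.6 ± 0.853% in control and 20.0 ± 4.03% in KO cells, and that of *RARB* was 0.679 ± 0.191% and 0.972 ± 0.154%. The summed receptor level per kilobase was 434.6 ± 19.8 in control and 608.4 ± 50.3 in KO cells, 1.40-fold higher. *RARB* was the least abundant of the receptor transcripts in every library. These shares follow from the counts given above and were not tested apart from them.

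**Figure D2:**
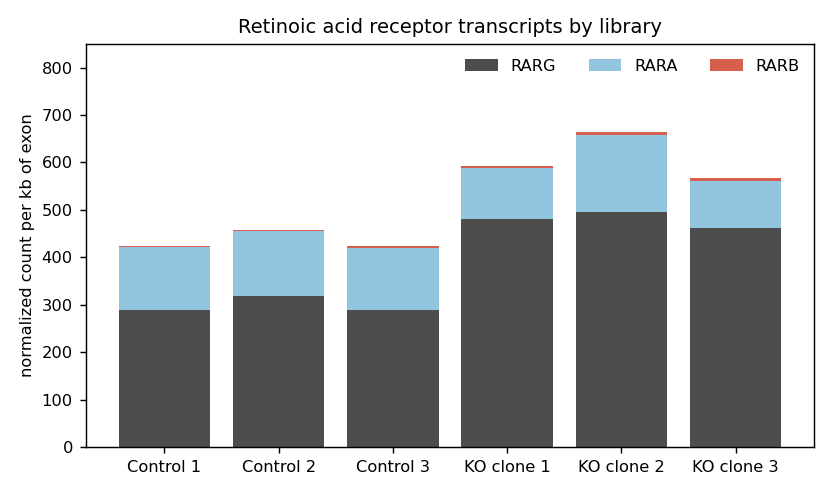
Stacked bars of normalized counts per kilobase of exon for RARG, RARA and RARB in the 3 control replicates and the 3 SAMD1 KO clones. The bars of the clones are taller through RARG, which holds between 74.5% and 81.5% of the sum in the clones and between 68.1% and 69.7% in the control replicates.

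The members fell into genes with like values in all clones and genes that differed between them. The highest clone exceeded the lowest by 1.20-fold for *DHRS3*, 1.17-fold for *RARB* and 1.07-fold for *RARG*. It did so by 1.66-fold for *RARA*, 2.16-fold for *ALDH1A3*, 2.48-fold for *CYP26A1*, 2.69-fold for *CRABP2* and 5.16-fold for *STRA6*. Clone 2 was the highest clone for *STRA6*, *ALDH1A3*, *CYP26A1*, *RARA* and *RARG*. Clone 1 was the lowest clone for *ALDH1A3* and *CYP26A1* and the highest for *CRABP2*.
On the log2 scale, clone 2 differed from the control mean by 4.72 for *STRA6*, 1.46 for *ALDH1A3* and 1.61 for *CYP26A1*. Clone 1 differed by 3.33, 0.35 and 0.37 for the same genes, and clone 3 by 2.39, 0.82 and 0.71. So the order of clones 1 and 3 for *STRA6* was not that of the other pair of genes. With 3 clones, these orders are descriptions only.

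**Figure D3:**
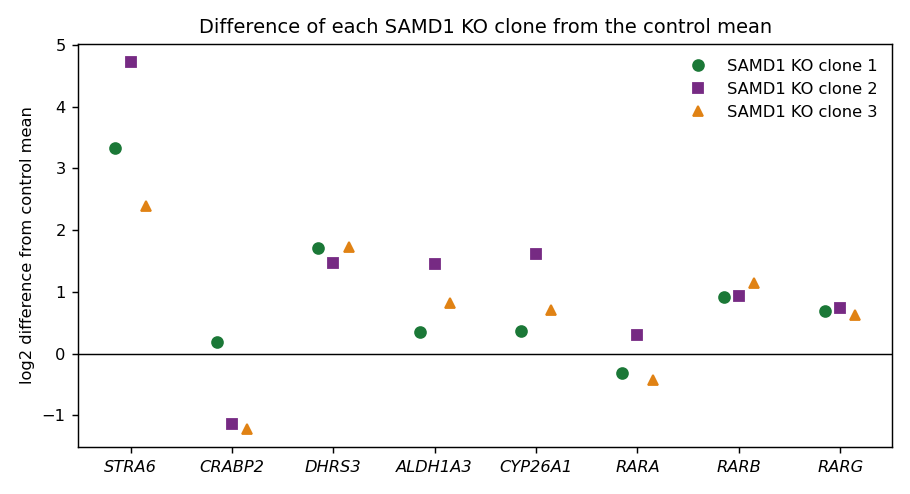
Difference of each SAMD1 KO clone from the mean of the control replicates, in log2(normalized count + 1), for the 8 members with reads. The symbols of the clones lie together for DHRS3, RARB and RARG, clone 2 is on top for STRA6, ALDH1A3 and CYP26A1, and CRABP2 and RARA have clones on both sides of 0.

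Genes around the members were compared in the same way. The 40 tested genes nearest to *STRA6* differed from control by a median of 0.049, 0.028 and 0.030 (log2) in clones 1 to 3, and those nearest to *DHRS3* by 0.0016, −0.023 and −0.068. For *ALDH1A3* these medians were 0.084, 0.074 and 0.063, and for *RARG* 0.051, 0.047 and 0.13. Around *RARB* they were larger in clones 1 and 2, at 0.19, 0.22 and −0.011. After regional medians were removed, the log2 fold change of *RARB* was 0.87 with an unadjusted limma p of 0.0108, just outside the call, and *DHRS3*, *ALDH1A3* and *RARG* were still called.
Of the nearest tested genes on either side of each tested member, only *LRRK1* was called higher and only *SEMA7A* lower. Over all tested genes, 5.77% were called higher and 2.08% lower. Beside *RARG*, *ZNF740* and *MFSD5* had log2 fold changes of −0.019 and −0.093, and beside *DHRS3*, *VPS13D* and *PRDM2* had 0.020 and 0.14. Beside *RARB*, *THRB* and *TOP2B* had 0.28 and 0.27 (limma adjusted p = 0.0659 and 0.0663). *LRRK1*, a kinase gene 2701 bases from *ALDH1A3*, rose with a log2 fold change of 0.62 (limma adjusted p = 0.0165), while *ASB7* on the other side had −0.048. *SEMA7A*, a membrane semaphorin gene 197022 bases from *STRA6*, fell with a log2 fold change of −0.89 (adjusted p = 0.0397), while *PML* on the other side had 0.059.

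With earlier results of these data known, the other genes of the pathway were grouped into 4 lists. The lists held 94 genes in all, of which 61 were tested. Of these, 10 were called higher and 1 lower (16.4% and 1.64%, against 5.77% and 2.08% of all tested genes). The plot of log2 fold changes by list shows that most of the lists' genes lay within the range of all genes.

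**Figure D4:**
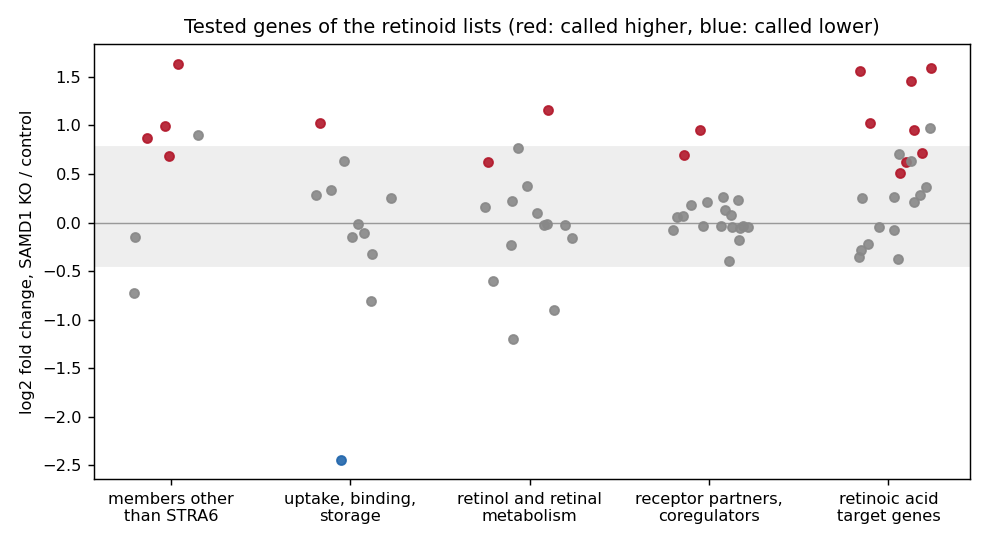
Log2 fold changes of the tested genes of the members other than STRA6 and of each retinoid list (1 point per gene, spread sideways for visibility), in red where called higher, in blue where called lower and in grey otherwise. The grey band spans the 5th to 95th percentile of all 12773 tested genes, −0.45 to 0.78, and the line is their median.

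For uptake, binding and storage, 11 of 17 genes were tested, with a median log2 fold change of −0.010. Of these, 1 was called higher and 1 lower (9.09% each, against 5.77% and 2.08% of all tested genes). The gene called lower was *CRABP1*, the close relative of *CRABP2*, with 10, 19 and 22 reads in the control replicates against 3, 3 and 2 reads in the clones. It passed the minimum mean of 10 only through the control group, where it is high, so its call is a description. Its ratio of summed reads was 0.132 with a 95% counting interval of 0.0543 to 0.281.
*LRAT*, which makes the storage esters of retinol, did not pass, with 121.8 ± 13.8 normalized counts in control and 191.1 ± 40.6 in KO cells (log2 fold change 0.63, adjusted p = 0.0684). Among the cellular binding proteins for retinoids, *RBP7* had the highest level per kilobase, with 1527 ± 52.6 normalized counts in control cells and 2475, 2104 and 1222 in the clones, which lay on both sides of the control range.

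For retinol and retinal metabolism, 15 of 31 genes were tested, with a median of −0.019. Limma and edgeR called 2 higher (13.3%, against 5.77% of all tested genes by limma), and DESeq2 called 3 (830 of 12773 over all genes). By all of these tools 0 were called lower. At an unadjusted limma p below 0.05, 2 were lower, against 1724 of all 12773 tested genes. *CYP26B1*, which like *CYP26A1* clears retinoic acid, rose from 879.3 ± 36.2 normalized counts to 1362 ± 202 (SD, n = 3 each; log2 fold change 0.62, limma adjusted p = 0.0126). Per kilobase it held 98.3 ± 0.533% of the level of both CYP26 genes in control and 97.9 ± 0.741% in KO cells, so *CYP26A1* was the minor gene in both. *CYP1B1*, a cytochrome P450 with retinol among its substrates, rose from 277.4 ± 42.3 to 622.7 ± 126 (log2 fold change 1.16, adjusted p = 0.00716).
Retinol dehydrogenase *RDH10*, which makes retinaldehyde, had 766.4 ± 61.8 in control and 755.8 ± 56.2 in KO cells (log2 fold change −0.019, SE 0.094). *AOX1*, an aldehyde oxidase, had 2692 ± 118 in control and 885.0, 1456 and 2341 in clones 1 to 3, all below the control range, and did not pass (adjusted p = 0.0998).

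For receptor partners and coregulators, 19 of 21 genes were tested, with a median of 0.059. By limma, edgeR and DESeq2, 2 were called higher and 0 lower (10.5% higher, against 5.77% of all tested genes by limma). At an unadjusted limma p below 0.05, 2 were lower, against 1724 of all 12773 tested genes. *NR2F1*, an orphan nuclear receptor, rose from 465.0 ± 26.0 normalized counts to 930.1 ± 262 (SD, n = 3 each; log2 fold change 0.96, limma adjusted p = 0.0260). *TBL1X*, a subunit of the corepressor complex on chromosome X, rose from 1381 ± 67.6 to 2243 ± 135 (log2 fold change 0.70, adjusted p = 0.00159), but by 0.43 on the log2 scale once its regional median was taken out, below the cut-off. The obligate partner *RXRA* had 2722 ± 175 in control and 2643 ± 260 in KO cells (log2 fold change −0.045, SE 0.087).

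For genes known as targets of retinoic acid, 22 of 32 were tested, with a median of 0.44. Limma and edgeR called 8 higher (36.4%, against 5.77% of all tested genes by limma), and DESeq2 called 9 (830 of 12773 over all genes). By all of these tools 0 were called lower. At an unadjusted limma p below 0.05, 2 were lower, against 1724 of all 12773 tested genes. *HOXA4* and *ELF3*, neither of them called, reached the minimum mean only through the KO group, where they are high. The medians of this list and of its parts are therefore descriptions. The list was written with earlier results of these data known, and 3 of the 8, *CYP26B1* and *NR2F1* among them, are also in the lists above. *TGM2*, a transglutaminase, rose from 48002 ± 2167 normalized counts to 78744 ± 6943 (SD, n = 3 each; log2 fold change 0.71, limma adjusted p = 0.00265). *GPRC5A*, an orphan receptor first named for its induction by retinoic acid, rose from 8634 ± 122 to 12328 ± 1324, with a log2 fold change of 0.51 close to the cut-off (adjusted p = 0.00841). Without control replicate 1, clone 1 or clone 2 it missed the cut-off, at a log2 fold change as low as 0.44.
*HOXB4* and *HOXB2*, developmental transcription factors, had log2 fold changes of 1.46 and 1.56 (adjusted p = 0.00116 and 0.00249), while the median of the 7 tested HOX genes of the list was −0.043. The neuron navigator gene *NAV2* rose from 60.2 ± 2.63 to 309.5, 107.1 and 186.2 in clones 1 to 3 (adjusted p = 0.0274). Without the HOX genes, the list had 6 genes called higher among 15 tested (40%, against 5.77% of all tested genes) and a median of 0.51.

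The 5 tested genes whose log2 values lay closest to those of *STRA6* over the 6 libraries, after the control mean was subtracted, were *SULF2*, *CBLN1*, *PCDH7*, *INHBB* and *BMP2*, with root mean square differences between 0.56 and 0.67. *SULF2*, which encodes a heparan sulfate sulfatase, had 41.2, 30.3 and 33.2 normalized counts in control, against 308.5, 429.4 and 120.5 in the clones, with the same order of clones as *STRA6*. *INHBB*, an activin subunit gene, had 4.58, 1.96 and 5.73 in control, against 26.7, 57.9 and 34.2 in the clones. Clone 2 was the highest clone for all 5 genes. This likeness rests on 6 libraries in 2 groups and is a description of their values.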

How the data were processed

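RNA-seq of 3 control replicates and 3 SAMD1 KO clones of PaTu8988t cells was used, grouped by their labels, with 0 sample columns left unused. The authors aligned reads with RNA-STAR to the GenCode transcriptome, and their processing notes name hg38, featureCounts and DESeq2. The strand setting is not given in the sources used here, so reads of overlapping or antisense genes are uncertain. The deposited signal is a normalized count, in which the authors divided each library by its own size factor. In each library 100% of values were whole multiples of 1 step (within 0.1 of a read), so reads were recovered. A second deposited table holds the authors' own comparison and was not used.

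Groups were compared with limma 3.58.1 (eBayes with trend, R 4.3.3, two-sided) on the log2 scale, with 1 added to each normalized count, in the 12773 genes that reached a mean of 10. Calls needed an unadjusted p below 0.01 and a change of over 0.5 on the log2 scale, after the study's cut-off. P-values were adjusted over every tested gene by the Benjamini-Hochberg method. With 3 libraries against 3, exact permutation cannot give a p below 0.1. The study used DESeq2 on counts, and here edgeR 4.0.16 and DESeq2 1.42.0 on recovered reads were alternatives, as were pseudocounts of 0.1 and 10, no filter or a mean of at least 50, scaling by the 75th percentile, a replicate block, leaving out each library, removing the median of 40 neighbouring genes, and an adjusted p below 0.05. The fits were tested on simulated data, where all genes and both groups had the same spread beyond counting error. Such data lack the wider spread that some genes had among the clones, so they do not test calls across unlike clones. Positions and exon lengths are from GENCODE 44 (98.5% of tested genes), and promoters from RefSeq.

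Members and lists were chosen with earlier results of these data known. The genes named were the members, *SAMD1*, the called genes of each list (at most 6, by p), the nearest tested neighbours, and the 5 genes closest to *STRA6*. The values of 1 called gene of the uptake list are not reported here. *CCDC33*, *ALDH1A3-AS1*, *GPS2*, *ALDH1A2*, *LRAT*, *RBP7*, *RDH10*, *AOX1*, *RXRA*, *NAV2*, *HOXA4*, *ELF3* and the cell type markers named were chosen after their values were seen. Python 3.11.15 was used for all other steps.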

Additional observations from a re-analysis of the deposited data

How the results depend on the processing

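The number of members called higher, 4, was 2 among genes with a mean of at least 50, where *DHRS3*, *RARB* and *CYP26A1* are no longer tested, and lay between 2 and 4 with 1 library left out. It was 2 without control replicate 1, control replicate 2 or clone 3. The number called lower lay between 0 and 1, with *CRABP2* called without clone 1. The median log2 fold change of the tested members other than *STRA6* was 0.27 over the 4 left at a mean of at least 50, and lay between 0.58 (without clone 2) and 1.04 with 1 library left out. For uptake, binding and storage, 2 genes were called higher with the replicate block, with DESeq2 or with regional medians removed, and between 1 and 2 with 1 library left out. In the same list 2 were called lower at a pseudocount of 10, 0 at a mean of at least 50, and between 1 and 2 with 1 library left out. For retinol and retinal metabolism, between 0 and 1 were called lower with 1 library left out. For receptor partners, 1 was called higher with regional medians removed. No direction reversed among the members, *SAMD1* and the called genes of the pathway lists, the genes for which the alternatives were run one by one. The cause of these moves was not tested, apart from the smaller number of genes or libraries. The replicate block changed no call of a member. Same-numbered libraries had correlations of 0.039, 0.13 and 0.032 in their deviations from the group means, and other pairs between −0.074 and 0.036. Each clone correlated best with the control replicate of its number, while control replicate 3 correlated best with clone 1 (0.036). All of these values are small, and they do not settle whether the numbers pair the libraries. Depth limits *STRA6*, *CRABP1* and *CYP26A1*, whose counts were low.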
